A study of Mus musculus with 18 samples.

Results

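The chromatin around 9 genes for secreted cytokines of the IL-6 and IL-12 families was examined in a catalog of accessible regions of mouse macrophages. The genes were Il6, Lif and Osm, which encode ligands of the IL-6 family, Il12a, Il12b, Il23a, Il27 and Ebi3, which encode subunits of the IL-12 family, and Il10. They were chosen by name among 21938 protein-coding genes of the annotation. All entries of the catalog in their bodies and within 50 kb (50000 bp) on either side of their most upstream start site were included. The windows held 161 of 82391 reference peaks, 169 of 84660 summits and 106 of 59617 extended regions. Osm and Lif are neighbors on chromosome 11, and their windows shared 21 reference peaks and 23 summits, which were counted once in these totals.

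Accessibility was measured by ATAC-seq, which uses the Tn5 transposase to tag open DNA with adapters, in bone marrow-derived macrophages (BMDMs) grown from marrow of wild type C57/BL6 male mice. All cells received the vehicle DMSO for 1 h. The 9 groups of 2 libraries each comprised untreated cells and cells stimulated for 30 min, 1 h, 2 h or 4 h with 10 ng/mL of either IL-4, a cytokine of T helper cells, or lipopolysaccharide (LPS), which activates Toll-like receptor signaling. The processed data pooled all 18 libraries and had no column per library. Neither the effect of a stimulus nor the spread between replicates was therefore analysed here, all values below describe a single catalog, and the depth of the libraries is unknown.

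Cytokines of the IL-6 family signal through the shared receptor chain gp130, encoded by Il6st, and the Jak and Stat proteins. Cytokines of the IL-12 family are heterodimers built from exchangeable subunits: Il12b combines with Il12a to form IL-12 and with Il23a to form IL-23, and Ebi3 combines with Il27 to form IL-27. IL-10, which restrains inflammatory gene expression in macrophages, belongs to a family of its own and signals through Il10ra, Il10rb and Stat3.

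The sequences before the start sites are shown first, because the members differed in whether a reference peak covered them. The promoter table of RefSeq (assembly GRCm38.p6, identical to mm10 in its chromosome coordinates) matched 5 of the 9 members, Il6, Il12a, Il12b, Ebi3 and Lif, whereas Il10, Il23a, Il27 and Osm were not in the table. The 250 bases before a RefSeq start are given 5′ to 3′ on the plus strand, which is the coding strand of these genes. They are chr5:30012864-30013113 for Il6, chr11:4257318-4257567 for Lif, chr3:68690394-68690643 for Il12a, chr11:44399813-44400062 for Il12b and chr17:55952373-55952622 for Ebi3. Capitals mark matches to the consensus letters of the motifs described further on.
Il6 promoter: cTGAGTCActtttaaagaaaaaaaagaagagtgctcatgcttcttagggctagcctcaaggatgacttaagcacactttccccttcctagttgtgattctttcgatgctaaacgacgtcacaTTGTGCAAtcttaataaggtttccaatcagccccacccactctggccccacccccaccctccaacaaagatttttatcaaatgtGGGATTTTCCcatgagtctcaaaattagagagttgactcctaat
Lif promoter: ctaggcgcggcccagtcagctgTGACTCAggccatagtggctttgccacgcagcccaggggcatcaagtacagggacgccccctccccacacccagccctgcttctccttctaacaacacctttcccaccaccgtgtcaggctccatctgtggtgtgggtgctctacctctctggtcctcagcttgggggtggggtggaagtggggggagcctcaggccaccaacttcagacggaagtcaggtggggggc
Il12a promoter: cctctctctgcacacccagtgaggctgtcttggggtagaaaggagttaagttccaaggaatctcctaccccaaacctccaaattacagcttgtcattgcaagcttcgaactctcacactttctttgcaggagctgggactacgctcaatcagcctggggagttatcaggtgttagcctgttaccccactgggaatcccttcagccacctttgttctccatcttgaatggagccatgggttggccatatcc
Il12b promoter: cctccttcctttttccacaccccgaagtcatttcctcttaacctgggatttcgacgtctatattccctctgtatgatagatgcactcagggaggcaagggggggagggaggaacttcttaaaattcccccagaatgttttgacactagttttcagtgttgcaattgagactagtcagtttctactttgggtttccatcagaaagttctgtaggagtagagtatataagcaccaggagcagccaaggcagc
Ebi3 promoter: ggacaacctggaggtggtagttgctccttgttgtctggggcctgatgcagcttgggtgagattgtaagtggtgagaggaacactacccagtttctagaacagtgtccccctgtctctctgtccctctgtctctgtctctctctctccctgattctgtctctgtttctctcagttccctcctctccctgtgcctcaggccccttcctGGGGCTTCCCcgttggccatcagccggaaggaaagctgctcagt

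The Il6 promoter had an AP-1 match that began 249 bases before the start, a C/EBP match at 128 bases and an NF-kB match at 44 bases. The Ebi3 promoter had an NF-kB match, also at 44 bases, and the Lif promoter had an AP-1 match at 228 bases. No match to any of the 10 motifs was found in the letters shown for Il12a and Il12b. Among all 32851 promoters of the table, 250 bases long in each case, AP-1 letters were found in 4.46%, NF-kB letters in 3.9% and C/EBP letters in 9.56%. These matches did not all lie in accessible sequence as called. In Ebi3, the NF-kB match was inside the reference peak over the start site. In Il6, the AP-1 match was inside a reference peak of 105 bp, whereas the C/EBP and NF-kB matches lay in a gap of 216 bp between this peak and the next one. In Lif, no reference peak overlapped the 250 bases, and the nearest one began 1508 bp beyond the AP-1 match.

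The best scored distal summits, which exceeded the start site summits in most members, are shown next. A distal summit is defined here as one that lies more than 1000 bp from any start site of a protein-coding gene. The score is the value the authors deposited with each summit. Its scale is not stated, and it was used only to rank summits within the list. Each sequence has 201 bases centered on the summit and is read 5′ to 3′ on the plus strand of the genome, with motif matches in capitals. They are chr5:30036031-30036231 for Il6, chr11:4232723-4232923 for Osm, chr3:68709285-68709485 for Il12a, chr11:44390135-44390335 for Il12b, chr7:126599074-126599274 for Il27 and chr1:131038134-131038334 for Il10. All 6 are intergenic. Those of Il23a and Ebi3 are not shown because they lie in introns of other genes (Cs and Yju2), and Lif shares that of Osm.
Il6 distal: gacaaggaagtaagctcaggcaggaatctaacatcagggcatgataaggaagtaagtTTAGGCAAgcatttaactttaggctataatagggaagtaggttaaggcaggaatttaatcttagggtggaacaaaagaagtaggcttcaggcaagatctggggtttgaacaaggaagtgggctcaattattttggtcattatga
Osm distal: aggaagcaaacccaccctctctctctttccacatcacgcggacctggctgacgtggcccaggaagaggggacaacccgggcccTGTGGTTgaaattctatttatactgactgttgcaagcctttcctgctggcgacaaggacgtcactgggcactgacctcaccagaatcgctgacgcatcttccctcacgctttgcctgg
Il12a distal: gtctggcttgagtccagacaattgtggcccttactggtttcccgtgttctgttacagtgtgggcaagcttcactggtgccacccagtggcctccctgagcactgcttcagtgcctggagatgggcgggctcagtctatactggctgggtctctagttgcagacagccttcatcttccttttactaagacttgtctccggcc
Il12b distal: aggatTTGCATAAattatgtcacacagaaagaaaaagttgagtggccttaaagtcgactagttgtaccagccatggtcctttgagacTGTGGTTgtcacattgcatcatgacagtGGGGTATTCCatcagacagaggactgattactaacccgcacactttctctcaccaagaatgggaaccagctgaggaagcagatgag
Il27 distal: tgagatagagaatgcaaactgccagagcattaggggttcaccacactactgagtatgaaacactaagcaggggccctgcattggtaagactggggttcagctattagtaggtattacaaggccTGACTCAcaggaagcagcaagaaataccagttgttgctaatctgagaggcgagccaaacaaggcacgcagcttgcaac
Il10 distal: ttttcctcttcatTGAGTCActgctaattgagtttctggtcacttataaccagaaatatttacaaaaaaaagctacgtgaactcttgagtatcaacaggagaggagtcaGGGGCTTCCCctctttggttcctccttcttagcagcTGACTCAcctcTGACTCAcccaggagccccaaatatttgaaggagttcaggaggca

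The Il10 sequence had 3 AP-1 matches and an NF-kB match that began 9 bases after the summit. The Il12b sequence had matches for NF-kB, C/EBP and RUNX. A single match was found for Il6 (C/EBP), Osm (RUNX) and Il27 (AP-1), and none for Il12a.

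All 9 members had 10 or more reference peaks in their window (range 10 to 34, median 16). Among all protein-coding genes, 30.9% had 10 or more, and the median was 6 (interquartile range 1 to 11). The limit of 10 is the lowest count of a member and was set after the counts were seen. By peaks in the window, the members fell into a denser and a sparser group. Il10 (34 reference peaks), Il27 (32), Lif (28) and Osm (26) had more peaks than at least 98.2% of protein-coding genes. The percentile, which is the share of genes with a lower count, was highest for Il10 (99.6). Il12b had 16 reference peaks (percentile 87.9), Il23a and Ebi3 had 13 each (percentile 80.1), and Il6 and Il12a had 10 each (percentile 69.1). The windows of Lif and Osm shared 21 of their peaks, and many summits of the denser windows were nearer to another gene. Summits nearest to the member itself numbered 16 for Il10, 15 each for Lif and Il12b, 11 for Il27 and 10 each for Osm and Il12a. They numbered 9 for Il6, 4 for Il23a and 2 for Ebi3, so that the grouping did not hold by this count. A count has no replicate error here, so that the order of members with similar counts, such as Il27 and Il10, carries no measure of certainty.

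**Figure D1:**
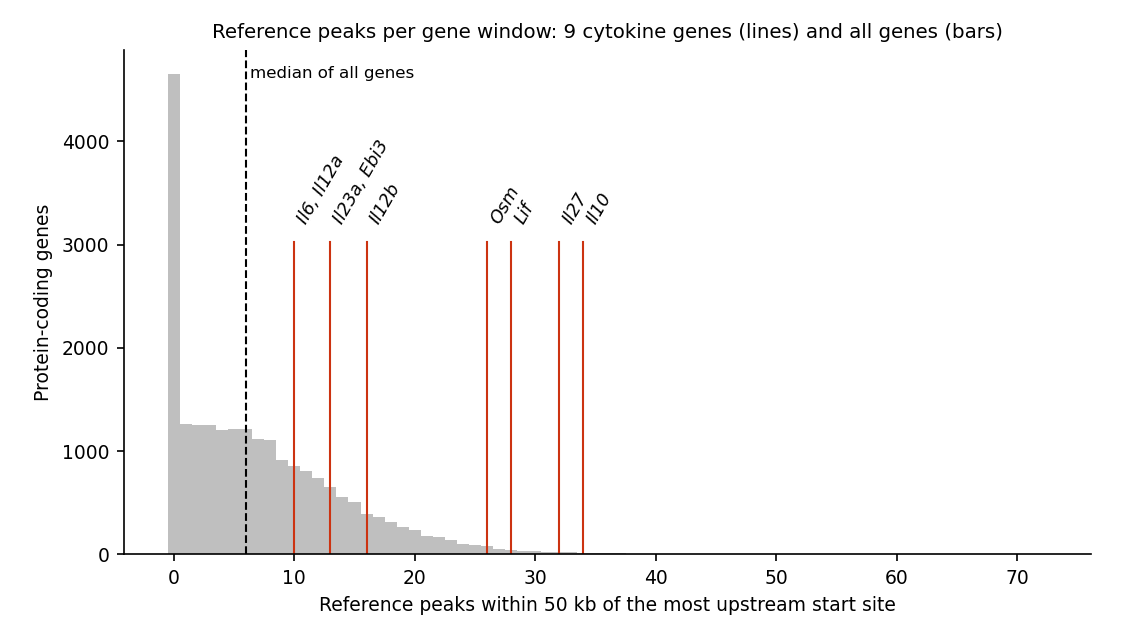
Number of reference peaks within 50 kb of the most upstream start site (x axis) against the number of protein-coding genes with that count (bars, y axis). Lines mark the 9 cytokine genes, which lie between 10 and 34 peaks, and the dashed line marks the median of all genes, 6.

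As a check of the labelled cell type, all 8 macrophage marker genes (Csf1r, Adgre1, Cd14, Itgam, Spi1, Lyz2, Cd68 and Mertk) had a start site peak, that is, a reference peak no more than 1000 bp from one of their annotated starts. The T cell genes Cd3e and Cd3g, the B cell gene Cd79a, the hepatocyte gene Alb, the neuron gene Rbfox3 and the neutrophil gene Ly6g had none. Start site peaks with scores between 402 and 1082 were also found at S100a8 (neutrophils), Flt3 and Zbtb46 (dendritic cells) and Col1a1 and Pdgfra (fibroblasts). Whether other cells in the cultures contributed to the cytokine windows was not tested.

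A start site peak was present in 9 of 9 members, compared with 56.5% of all protein-coding genes. With the most upstream start site alone, 7 of 9 members had a peak, compared with 52.1% of genes. The exceptions were Il12a and Lif. The best start site score of the members had a median of 1013 (range 332 to 1955), whereas the 12321 protein-coding genes with a start site summit had a median of 1456 (interquartile range 1071 to 1799). Of the 9 members, 8 were below this median, and the exception was Ebi3 at percentile 85.1 of these genes.

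The best distal summit of each window was compared with the start site next. In 8 of 9 members, the best distal summit in the window scored higher than the best start site summit, and the exception was Ebi3. Among the 12321 protein-coding genes with a start site summit, 36.4% showed this order. With distal summits within 20 kb (20000 bp), it applied to 6 members and 21.9% of genes, and with those within 100 kb (100000 bp), to 8 members and 48.7% of genes. For Lif, the distal summit with this rank (1916) was that nearest to Osm. The best distal summit nearest to Lif itself scored 1236, also above its start site (458). For Il23a, the distal summit was in an intron of Cs (1864), and the only one nearest to Il23a scored 448, below its start site (1013). With distal summits nearest to the gene itself, the order thus applied to 7 of 9 members and 20.9% of the 12321 genes. Because windows with more summits have more chances to hold a high one, these shares also reflect the number of summits per window.

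**Figure D2:**
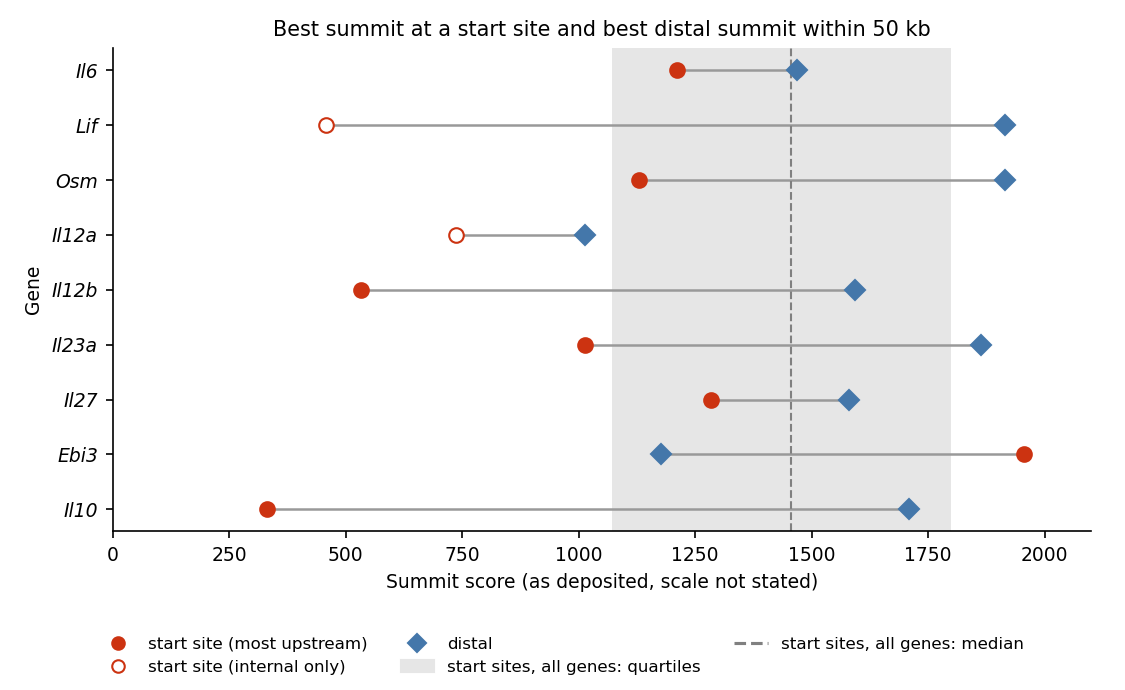
Score of the best summit within 1000 bp of a start site (circles; open where the site is internal to the gene) and of the best distal summit within 50 kb (diamonds) for each member, with the score on the x axis. The gray band and dashed line give the quartiles and the median (1456) of start site scores over all protein-coding genes. The diamond lies to the right of the circle in 8 of 9 genes.

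Among the ligands of the IL-6 family, Il6 (chr5:30013114-30019981, plus strand), a mediator of the acute phase response, had a pair of summits at its start site. One lay 206 bp upstream of the start site (score 1200) and another in the first part of the gene, 135 bp downstream (1212). Both belong to a single peak of the merged call that the reference list gives as separate peaks of 105 and 202 bp. The remaining high scores were far downstream of the gene, at 23017 bp (1468) and 26949 bp (1272). Upstream, the nearest summit after the promoter was at 19338 bp (812), and those at 40134 and 47211 bp had scores of 226 and 341. The widest peak of the window, 434 bp, had the lowest score of all member summits (127) and lay past the end of the gene.

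Osm (chr11:4236420-4241026), a ligand of gp130 produced by activated macrophages, had 3 summits at its start site, at 923 bp upstream (623), 52 bp upstream (979) and 323 bp downstream (1129). Accessible sequence continued into the gene with summits at 1252 bp (1308), 3901 bp (1141) and 4185 bp (1002) downstream. The best distal summit of the locus had a score of 1916 (percentile 97 of all summits) and lay 3597 bp upstream of Osm in a peak of 412 bp.

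Lif (chr11:4257557-4272514), which acts through Lifr and gp130, differed from its neighbor. Its most upstream start site had no reference peak within 1000 bp. The start site peaks of Lif were at an internal start site located 9239 bp into the gene, with summits scoring 439 and 458. Introns of the gene contained distal summits of higher score, at 1382 bp (945), 3069 bp (1141), 3746 bp (934) and 5543 bp (554) from the most upstream start site. A cluster of 7 summits was located downstream of the gene, between 36584 and 42595 bp from the start site, with scores up to 1236. The best scored distal summit in the window of Lif was that upstream of Osm, 24734 bp from the start of Lif and 3597 bp from that of Osm, so that position alone does not assign it to either gene.

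Other start sites in these windows also carried peaks. In the window of Osm, these were Castor1 and Tbc1d10a (best score 1903) beside Lif, and in that of Lif, Castor1 (1606) and Osm. In the window of Il6, no start site of another gene had a summit.

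**Figure D3:**
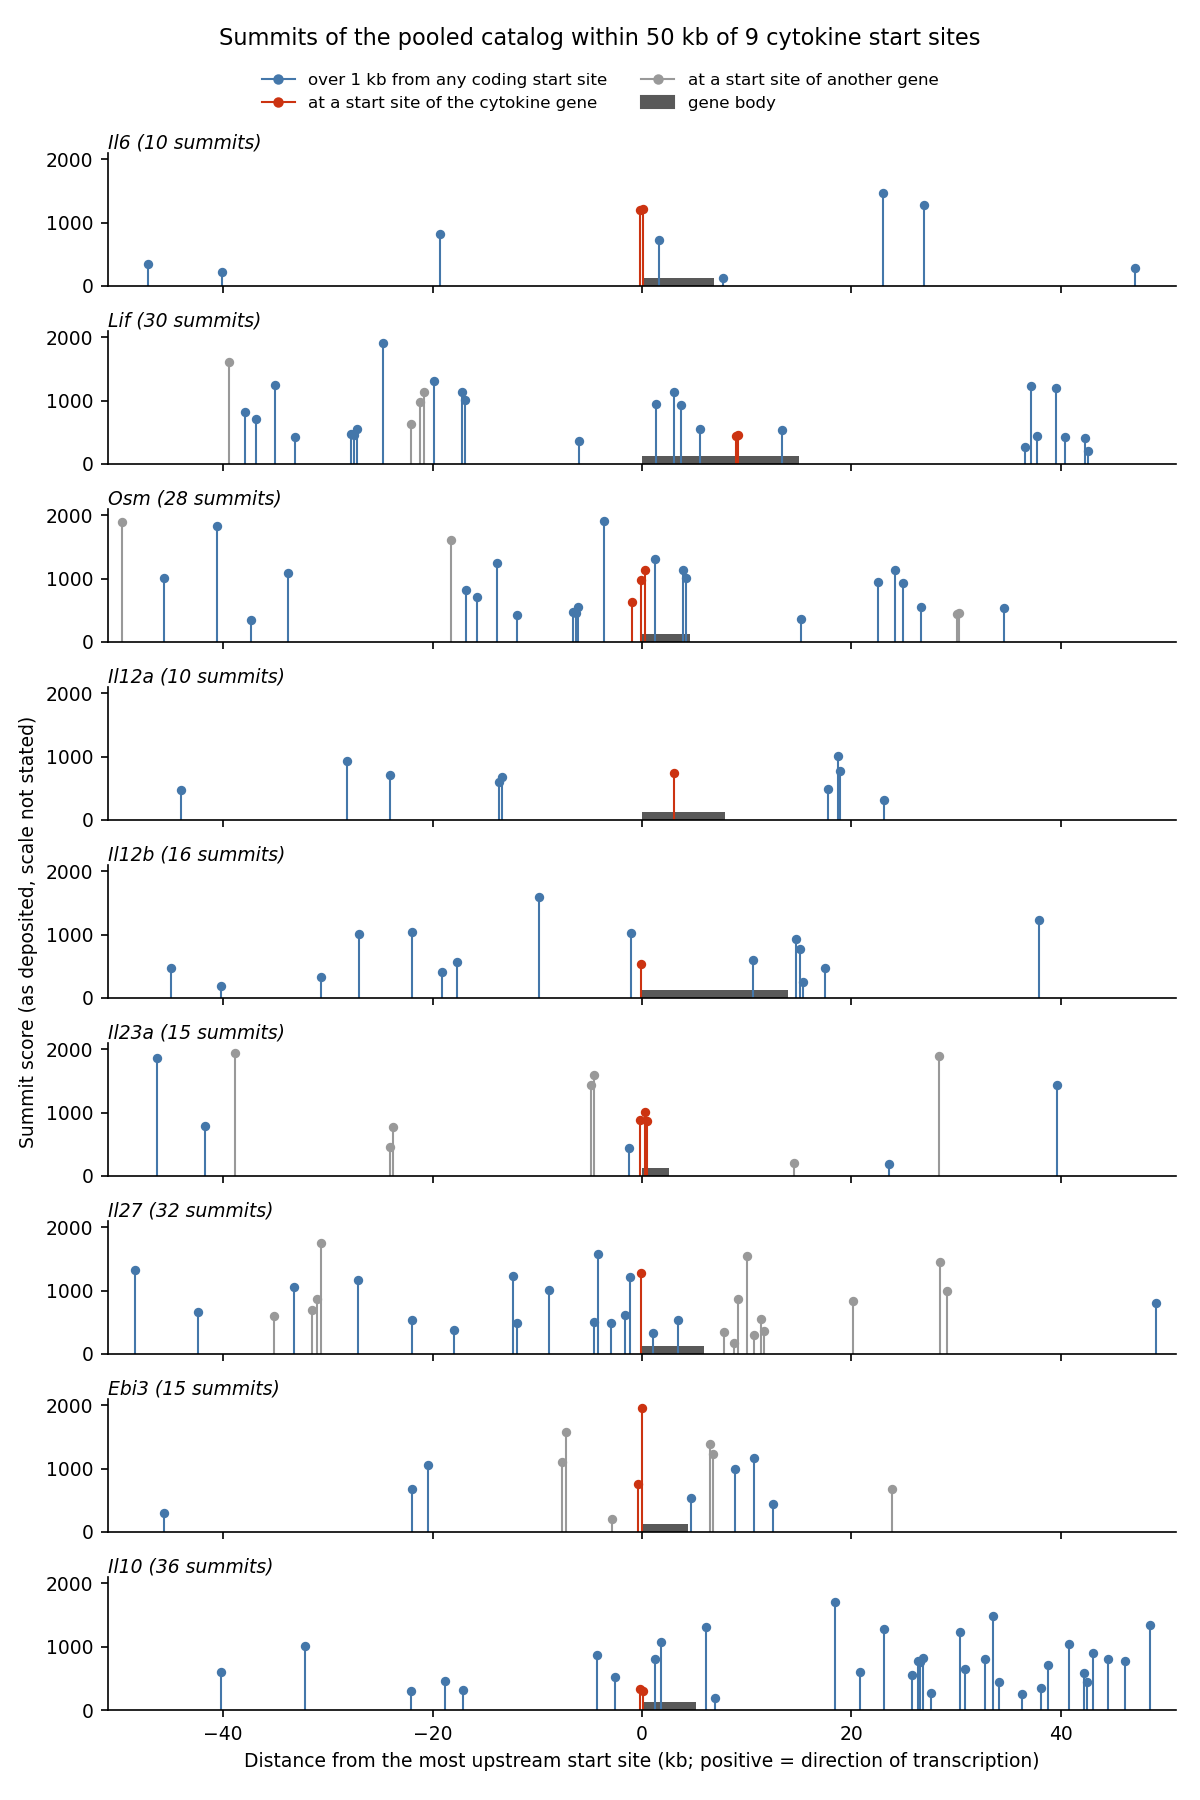
Summits of the catalog by distance from the most upstream start site of each gene (x axis, kb) and by score (y axis), with positive distances in the direction of transcription. Colors separate distal summits, summits at a start site of the cytokine gene and summits at a start site of another gene, and the gray bar is the gene body. Scores at the start site are lower than at the best distal summit in all panels except Ebi3, and 28 of the 36 summits of Il10 lie downstream of its start site.

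Among the subunits of the IL-12 family, Il12b (chr11:44400063-44414033), the chain shared by IL-12 and IL-23, had a start site peak of 207 bp with a summit 116 bp upstream and a score of 534, which was higher than in only 3.99% of genes with a start site summit. A summit 1003 bp upstream scored 1025 and falls just outside the limit for start site summits. Its peak of 147 bp reached within 1000 bp of the start and is thus a second start site peak. The best summit lay 9828 bp upstream (1594, percentile 90.5) in a peak of 683 bp, which was the widest of the window. The median width of all reference peaks was 227 bp. Farther upstream, summits followed at 21969 bp (1036) and 27032 bp (1013). Of the 16 summits, 15 had Il12b as the nearest protein-coding gene by start site. The start site of no other gene in this window carried a summit.

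Il12a (chr3:68690644-68698547), which encodes the partner of Il12b in IL-12, had no reference peak within 1000 bp of its most upstream start site, and no peak overlapped the promoter sequence shown. Its start site peak (396 bp, score 737) was in an intron, 3012 bp downstream of the most upstream start site and 337 bp before an internal one. The internal start belongs to a transcript annotated with a retained intron rather than to the coding form. All other 9 summits were distal, with the highest score 18741 bp downstream (1013), and Il12a was the nearest gene for all 10. This was the lowest best distal score among the 9 members.

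Il23a (chr10:128296139-128298752, minus strand), the subunit specific to IL-23, had 3 summits around its start site, 212 bp upstream (878) and 276 and 462 bp downstream (1013 and 867). Distances refer to the most upstream start, from which a transcript with a retained intron begins. The window was shared with many other genes, and 11 of its 15 summits were nearer to a start site of Apon, Cnpy2, Cs, Pan2 or Stat2. Stat2, a transducer of interferon signals, had a start site summit of 1890, and Cs, which encodes citrate synthase, one of 1942. The best distal summit (1864) was in an intron of Cs, 46296 bp upstream. The only distal summit nearest to Il23a was at 1235 bp upstream with a score of 448, and it contained matches for C/EBP, CRE and MAF.

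Il27 (chr7:126589010-126594941, minus strand) encodes a subunit of IL-27. It had a start site peak of 189 bp with a summit 117 bp upstream and a score of 1284. It was followed upstream by a row of 8 further summits within 12304 bp that had Il27 as the nearest gene, among which those at 1158 bp (1224), 4233 bp (1581) and 12304 bp (1236) had the highest scores. Of these 3 summits, 2 had an NF-kB match, at 1158 and 12304 bp. Another pair of summits nearest to Il27 was in the gene body, at 1003 bp (332) and 3469 bp (534). The other 21 of 32 summits were nearer to another gene, and start sites of Apobr, Cln3, Eif3c and Nupr1 were accessible.

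Ebi3 (chr17:55952640-55957022), the partner of Il27, had the highest start site score of the 9 members (1955, percentile 97.5 of all summits), with the summit 9 bp upstream of the start in a peak of 313 bp. A second summit was 415 bp upstream (759). Both had an NF-kB match within 100 bp. No summit lay in the gene body, and the other 13 of its 15 summits were nearer to the start sites of Yju2, Zfp119b, Shd or Zfp959. Both members of the Il27 and Ebi3 pair had an accessible start site in the catalog, as did Il12b and Il23a, whereas the Il12a partner of Il12b did not at its most upstream start.

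Il10 (chr1:131019845-131024974) combined the lowest start site score with the largest number of summits. Its start site peak of 433 bp had summits 170 bp upstream (332) and 65 bp downstream (298), and the score of 332 exceeded that of 0.617% of genes with a start site summit. Higher scores were found 4291 bp upstream (867), in introns at 1285 bp (812) and 1860 bp (1082), and past the gene at 6153 bp (1308). The best distal summit was 18389 bp downstream (1708, percentile 93.3). Of the 36 summits, 28 were downstream of the start site and 19 were nearest to Mapkapk2, which encodes the kinase MK2 and lies next to Il10 on its downstream side. Many of the downstream summits came from a pair of very broad peaks of the merged call. The first had 7 listed summits between 20800 and 27588 bp and the other 13 between 30392 and 44501 bp from the Il10 start. No start site of another gene in the window had a summit.

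The promoters of the members all had a CpG dinucleotide ratio below the median of protein-coding genes. The ratio of observed to expected CpG in the 250 bases before the most upstream start site was between 0.0989 (Il27) and 0.428 (Il23a) with a median of 0.229, whereas all protein-coding genes had a median of 0.486 (interquartile range 0.198 to 0.771). Only Il27, Ebi3 (0.107) and Il12a (0.126) were below this range, and the other members were inside it. A TATA box, searched as TATAAA starting 20 to 45 bases before the start site on the coding strand, was found in 1 member, Il10, and in 2.64% of protein-coding genes. With the shorter letters TATAA, Il12b and Il27 were added, and the share of protein-coding genes was 4.7%.

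The 169 member summits had a median score of 769 (interquartile range 458 to 1129), compared with 737 (486 to 1153) for all summits. Distal summits made up 72.8% of them and 74.3% of all summits. Their median score was 716, compared with 675 for all distal summits, whereas the summits at start sites, those of other genes in the windows included, had a median of 867 compared with 1036. The reference peaks had a median width of 264 bp, compared with 227 bp. By annotation, 101 summits were intergenic, 43 in introns and 25 in exons of protein-coding genes.

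The 201 bases around each summit (100 bp on either side) were scanned on both strands for motif letters. A match is a description of the sequence rather than proof of binding. NF-kB, bound by factors that Toll-like receptors activate, was the only one of 10 motifs for which, within 100 bp and with windows of 50 kb, the catalog share lay outside the interval of the members. It was found at 17 of 169 member summits (10.1%, 95% Wilson interval 6.38 to 15.5%), compared with 5.55% of all summits. At distal summits alone, the shares were 10.6% and 5.73%. NF-kB matches were found at 5 summits of Il27, 4 of Osm, 3 each of Il10 and Lif, 2 each of Il12b and Ebi3 and 1 of Il23a, where shared summits are counted for both genes, and at none of Il6 and Il12a. The match in the Il6 promoter described above is not among them because it lies more than 100 bp from both summits. With the window reduced to 50 bp, the share was 4.73% (interval 2.42 to 9.06%), and this interval contained the share of 3.4% of all summits, so that the difference no longer held.

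For the other motifs, the shares of members and catalog are given in this order. AP-1 (TGAGTCA) was found at 17.2% of member summits and 15.9% of all summits, C/EBP (TTGCNNAA) at 11.8% and 11.4%, and PU.1/ETS (GAGGAAGT) at 8.28% and 9.08%. These factors act widely at myeloid enhancers, and PU.1 is a lineage factor of macrophages. STAT (TTCNNNGAA) was found at 7.1% and 6.35%, IRF (GAAANNGAA) at 5.92% and 8.12%, and RUNX (TGTGGTT) at 5.33% and 7.91%. The catalog share was inside the 95% interval of the members for all of these, but for C/EBP it was outside when the 92 summits nearest to a start site of a member were taken alone (19.6%, interval 12.7 to 28.8%). The same applied to MAF (TGCTGAC) with 8.28% and 5.66%, to CRE (TGACGTCA) with 1.78% and 0.938%, and to CTCF, an architectural protein, with 3.55% and 3.03%. For CRE, with 3 member summits, the catalog share of 0.593% was outside the interval (0.606 to 5.09%) within 50 bp. A CTCF match was found at 1 summit each in the windows of Il6, Il10, Il12a, Il23a and Ebi3 and at 1 summit shared by Lif and Osm. MAF letters can share bases with AP-1 and CRE letters, and overlapping matches were counted for each motif. The intervals treat summits as independent, although neighboring summits share sequence and locus, and cover counting error only.

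**Figure D4:**
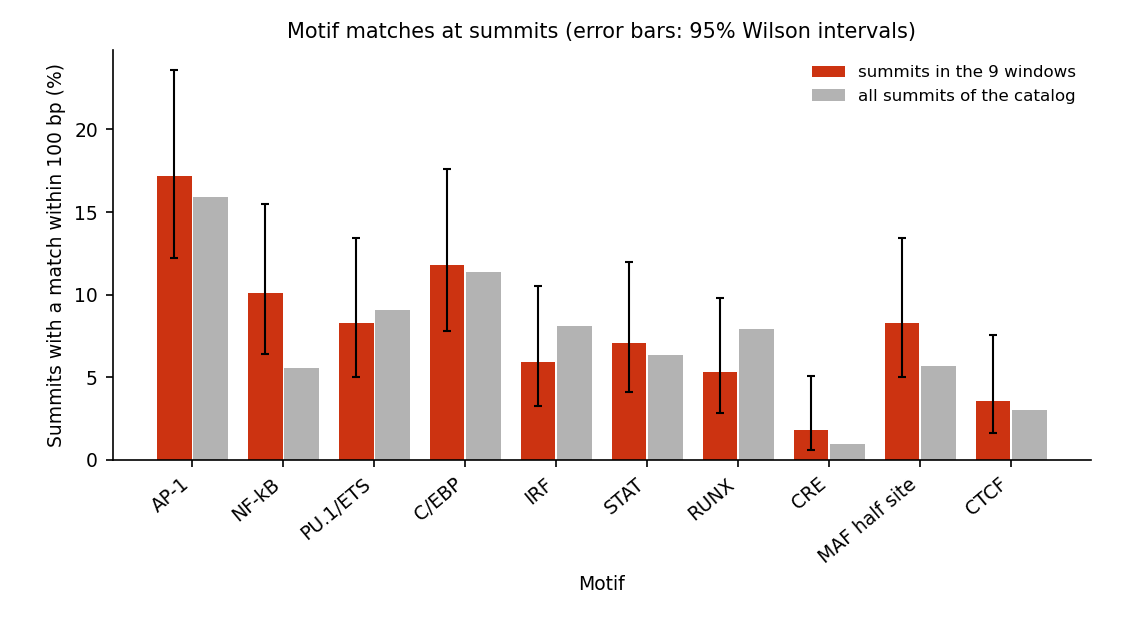
Percentage of summits with a motif match within 100 bp (y axis) for 10 motifs (x axis), in the 9 cytokine windows (169 summits, with 95% Wilson intervals) and in the whole catalog (84660 summits). For NF-kB, the catalog share of 5.55% lies below the interval of 6.38 to 15.5%, whereas it lies inside the interval for the other 9 motifs at this distance.

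No motif match was found at 71 of the 169 summits (42%, compared with 45.2% of all summits), 1 motif at 67 (39.6% and 38.6%), 2 at 26 (15.4% and 13.5%) and 3 at 5 summits (2.96% and 2.43%). The summits with 3 motifs included the distal summit of Il12b at 9828 bp (NF-kB, C/EBP and RUNX), that of Il27 at 12304 bp (NF-kB, C/EBP and IRF) and the summit 1637 bp into Il6 (C/EBP, STAT and CTCF).

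The receptors and signal transducers of these cytokines mostly had accessible start sites. Of 17 genes, 14 had a start site peak, against the 56.5% of all protein-coding genes. The shared chain Il6st had a best start site score of 1851, Il6ra of 1480, Il10ra of 1308 and Il10rb of 1644. Stat3 (2153), Tyk2 (2140), Jak1 (1890) and the feedback inhibitor Socs3 (1890) exceeded all of them. The receptor chains Il12rb1 (544), Il27ra (706) and Lifr (934) had percentiles of 4.28, 9.15 and 17.9 among genes with a start site summit, whereas Il12rb2 (1594) had 59.3, and Il23r, Osmr and Stat4 had no start site peak. No measure of error exists for a single score.

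Among 9 related cytokine genes outside the members, 2 had a start site peak, compared with 56.5% of all protein-coding genes. These were Ctf1 (1082) and Clcf1 (1036), both ligands of the IL-6 family. Il11, Cntf, Il31, Il19, Il20, Il24 and Il22 had none. Il19, Il20 and Il24 are members of the IL-10 family, and Il19 was the nearest gene to the most upstream summit of the Il10 window, 40176 bp from its start (score 603). These 9 genes had between 3 and 22 reference peaks in their windows with a median of 5, compared with 6 over all protein-coding genes.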

How the data were processed

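ATAC-seq libraries of BMDMs (9 groups, 2 libraries each) were prepared, sequenced and processed by the authors. Adapters were removed with BBDuk, reads were trimmed (Trimmomatic 0.39), aligned to mm10 with ShortStack and filtered (SAMtools 1.9), and peaks were called with MACS2 2.2.6 without model or local background and with duplicates kept. Only peaks that passed a stringent q-value limit and overlapped between replicates entered the lists, so that a missing peak means only that none passed these limits. Because no correction for the Tn5 offset is named, summit positions are approximate to the cut site. The 3 deposited lists hold positions (reference peaks, extended regions, summits), and the deposited score of each summit has no stated scale. Extended regions join neighboring peaks. Per the labels, no column belongs to a single library, so depth and precision per library are unknown, and 0 columns belonged to other samples.

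Entries overlapping a window by 1 bp or more were counted (pandas 2.3.3, pysam 0.24.0) and set beside all protein-coding genes of GENCODE M21. Motif and window counting were tested on simulated data. No test was run, since the lists do not separate the replicate libraries. The members, gene lists (from general knowledge) and comparisons were chosen with earlier results of these data known. The text names all members, with their start site, best distal and widest peaks, other genes with an accessible start site in a window, and listed genes, of which 2 are not reported here. Alternatives were other windows, start site limits, motif distances and a minimum score equal to the median (737).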

Additional observations from a re-analysis of the deposited data

How the results depend on the processing

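No paired analysis was possible because the lists carry no column per library, and no library could be left out. The 161 reference peaks, 169 summits and 106 extended regions became 85, 92 and 52 with windows of 20 kb, 256, 267 and 164 with windows of 100 kb, and 82, 88 and 64 when scores below the list median were left out. The median of 16 reference peaks per member became 10, 29 and 9, respectively. These shifts follow from smaller or larger windows and fewer entries. Within 50 bp of a summit, the shares of members and catalog were 11.8% and 11.6% for AP-1, 4.73% and 3.4% for NF-kB, 4.14% and 6.44% for PU.1/ETS, 5.33% and 6.5% for C/EBP, 2.96% and 4.47% for IRF, and 4.73% and 3.25% for MAF, each catalog share inside the interval of the members. Within 200 bp, they were 16% and 8.05% for NF-kB (interval 11.2 to 22.2%), 10.7% and 14.4% for IRF and 14.8% and 12.1% for STAT. Without scores below the list median, they were 1.14% and 1.98% for CTCF. With TATAA, 3 members and 4.7% of protein-coding genes had a TATA box. In settings added after seeing the data, NF-kB was found at 14.1% of summits in windows of 20 kb and at 13% of the 92 summits nearest to a start site of a member, compared with 5.55% of all summits. C/EBP reached 19.6% at these 92 summits (catalog 11.4%), and CRE 3.26% in windows of 20 kb (3 summits, interval 1.12 to 9.15%, catalog 0.938%). The order of best distal over start site score held for 7 members and 20.9% of protein-coding genes with a start site summit when distal summits nearest to the gene itself alone were used. In 46 other settings and 22 added ones, values stayed within 1 SD, the 95% interval or 1.5 times the count.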
